A study of Mus musculus with 30 samples.

Results

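Solute carriers are the membrane proteins that move amino acids, sugars, metals, nucleotides and ions across the cell surface and the membranes of organelles. The genes described here are the solute carrier genes of the mouse heart outside the mitochondrial Slc25a and the Slc41a families and outside Slc2a1, Slc2a4, Slc22a5, Slc27a1, Slc8a1, Slc6a8 and Slc16a1. The members were chosen by measured level: a gene was taken when its symbol in the deposited table began with Slc and a number and its mean over the 6 RNA libraries was at least 1 FPKM, a level scaled to transcript length and library size. The rule took 126 of 13575 rows, from 196 rows with such a symbol and 150 left after the exclusions. They carry 125 distinct symbols, because Slc38a9 stands in 2 rows. Of the 126 rows, 2 are pseudogenes by their names and 4 are proteins named after a carrier that they bind or neighbour. For short, all 126 are called carriers below, and these rows are in the counts. Among the symbols left after the exclusions, the rule used the level over all 6 libraries and not the difference between the groups. However, 6 genes had a group mean under 1 FPKM in 1 group and reached the rule through the other. The members were also chosen with earlier results of these data known. All 126 passed the filter of the test, a mean of at least 0.5 FPKM.

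The series studies the REV-ERB nuclear receptors of the heart, which are repressors of the circadian clock. The 3 libraries labelled CM-RevDKO come from hearts in which floxed Rev-erba and Rev-erbb alleles are cut out in cardiomyocytes by a Cre that the alpha myosin heavy chain promoter drives, as the protocols in the labels state. The 3 libraries labelled control come from floxed hearts, which, by the protocol given for the ChIP samples, carry no such Cre, so what Cre does by itself and what receptor loss does cannot be told apart. Both groups were taken from mice at 2 months of age and at ZT10, which is 10 hours after lights on, and the atria were trimmed away. Replicates are not said to come from separate animals, and the p-values then rest on a spread between samples that may be technical. Nr1d1, which encodes REV-ERBa, had 55.6, 47.4 and 47.9 FPKM in the libraries labelled CM-RevDKO, against 23.9, 22.6 and 15.01 FPKM in those labelled control. Its value goes against the label if the whole transcript is counted, and the deleted part was not measured on its own. Nr1d2, which encodes REV-ERBb, had 28.8, 26.6 and 26.7 FPKM in the libraries labelled CM-RevDKO, against 40.3, 30.6 and 36.3 FPKM in those labelled control, and did not pass the test. Arntl, a clock gene repressed by the receptors, had 12.5, 12.95 and 12.9 FPKM in the libraries labelled CM-RevDKO, against 0.295, 0.145 and 0.0831 FPKM in those labelled control. Each direction below is therefore given for libraries by their labels.

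The depth of the libraries is unknown, since the table holds no counts. Mitochondrially encoded genes took 36.9% to 41.0% of the summed FPKM of a library, and 11967 to 12395 genes reached 1 FPKM. The 8 cardiomyocyte markers summed to 29370, 31850 and 32910 FPKM in the libraries labelled CM-RevDKO and 29380, 29680 and 31550 FPKM in those labelled control, and none of them passed limma's test (2 higher and 2 lower at an unadjusted p under 0.05). Of the 4 atrial markers tested, 1 rose, Nppa, which encodes the natriuretic peptide ANP (adjusted p = 0.000737); Sln, Myl7 and Myl4 did not pass, at adjusted p of 0.0892, 0.186 and 0.266, although the groups of none of the 4 overlapped. The summed level of the 4 was 1474, 755 and 835.1 FPKM in the libraries labelled CM-RevDKO, against 277.6, 196.3 and 253.2 FPKM in those labelled control. Nppa made up most of each sum, with 813, 589 and 630 FPKM in the libraries labelled CM-RevDKO and 164, 134 and 143 FPKM in those labelled control. Myl7 alone, the atrial light chain, had 288, 67.6 and 87.8 FPKM in the libraries labelled CM-RevDKO and 51.9, 27.8 and 45.4 FPKM in those labelled control. Bmp10, a factor made in the atrium, was listed at 1.94 FPKM in replicate 1 labelled CM-RevDKO and at 0 in the other 5 libraries. The 5 adipocyte markers tested of 8 lay in both directions: Plin4, a lipid droplet protein, fell (-0.61, adjusted p = 0.0396), and none of the other 4 passed, with differences of 0.54 to 1.67. They summed to 100.2, 64.5 and 35.1 FPKM in the libraries labelled CM-RevDKO, against 48.6, 43.4 and 39.7 FPKM in those labelled control, sums that overlap.

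The summed level of the carriers overlapped between the groups. Their FPKM values summed to 1043, 987.5 and 979.7 in the libraries labelled CM-RevDKO and to 1021, 1054 and 995.5 in those labelled control, which is 0.138% to 0.153% of all values in the table. By gene, the mean over the 6 libraries ran from 1.00 to 60.2 FPKM with a median of 3.87 FPKM, below the median of 5.59 FPKM over all rows. A level of at least 10 FPKM was reached by 26 carriers, and 29 lay under 2 FPKM. Just inside the level of the rule stood Slc2a4rg-ps at 1.00 FPKM, Slc9a9 at 1.08 FPKM and the second row of Slc38a9 at 1.08 FPKM. Just outside it stood Slc15a3 at 0.981 FPKM and Slc2a3 at 0.977 FPKM.

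Of the 126 carriers, 4 differed between the groups at an adjusted p under 0.05 by limma on log2(FPKM + 1): Slc17a7 and Slc47a1 were higher in the libraries labelled CM-RevDKO, and Slc7a1 and Slc40a1 were lower. That is 3.17% of the carriers. Of all 13256 genes tested, 332 or 2.50% passed, with 167 higher (1.26%) and 165 lower (1.24%), so the share among carriers was near the share of the whole table. When values were scaled without the mitochondrially encoded genes, the whole table gave 118 higher and 212 lower, and the carriers 2 higher and 3 lower. At an unadjusted p under 0.05 stood 19 carriers (15.1%) and 16.6% of all tested genes. The groups did not overlap for 32 carriers (25.4%), with 17 higher and 15 lower, against 23.1% of all tested genes (12.6% higher and 10.5% lower). Among all genes that reached the level of the rule, the share without overlap was 23.6%. The 15 lower include Slc2a12, Slc22a3 and Slc16a7, which reached that level through the control group only. Of the 120 carriers with both group means at that level, 29 did not overlap. The median difference of the carriers was 0.02 on the log2 scale, and so was that of all tested genes. Between -0.25 and 0.25 lay 94 carriers (74.6%), against 69.1% of all tested genes, and 10 carriers (7.94%) went past 0.5 in size, against 9.44%. The plot of level against difference shows the carriers inside the cloud of all genes, with Slc17a7 apart from them.

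**Figure D1:**
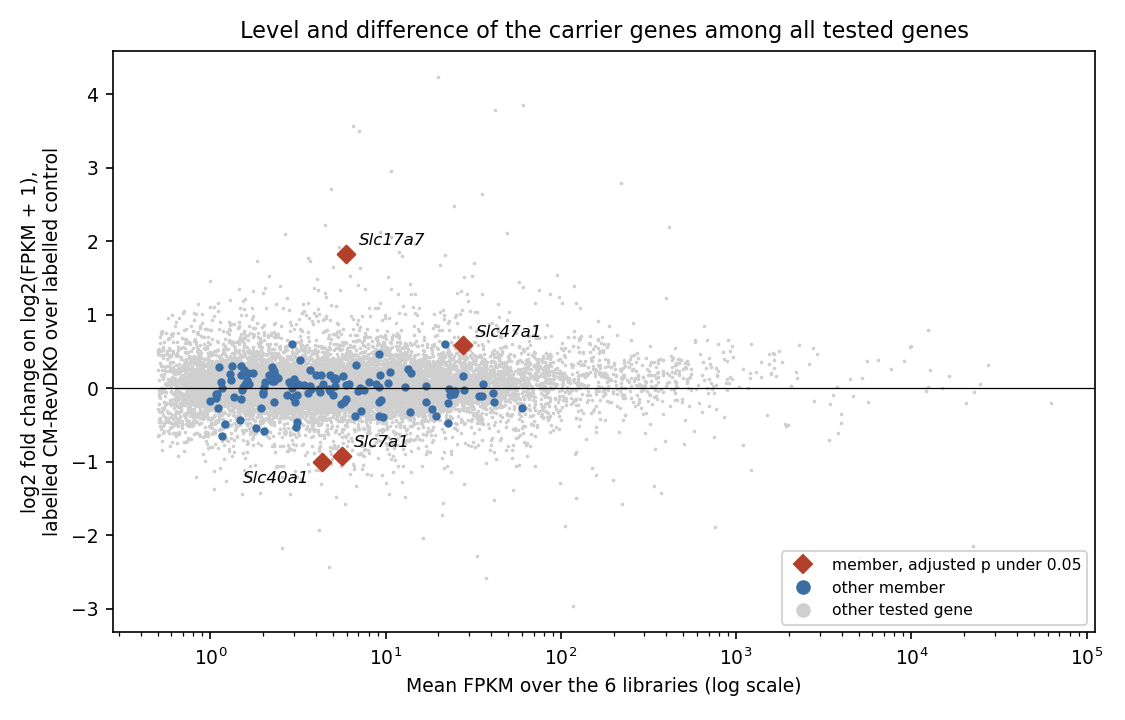
Mean FPKM over the 6 libraries (horizontal, log scale) against the log2 fold change on log2(FPKM + 1), libraries labelled CM-RevDKO over those labelled control (vertical). Gray points are the other tested genes, blue points the carriers that did not pass, and red diamonds the 4 that passed limma's adjusted p of 0.05; the carriers run from -1.001 to 1.83 and most lie within 0.25 of 0.

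Slc17a7 had the largest difference of all carriers. It encodes VGLUT1, which loads glutamate into synaptic vesicles of neurons. The gene (ENSMUSG00000070570) lies on chromosome 7 at 45163921 to 45176139 in GRCm38, and the microRNA gene Mir7055 lies inside it over 59 bases. Its level was 9.93, 8.29 and 11.2 FPKM in the libraries labelled CM-RevDKO, against 2.08, 1.40 and 2.74 FPKM in those labelled control. All 3 libraries labelled CM-RevDKO stood above all 3 labelled control, with a gap between 8.29 FPKM in the lowest of them and 2.74 FPKM in the highest control. The mean was 9.81 ± 1.46 FPKM in the libraries labelled CM-RevDKO and 2.08 ± 0.67 FPKM in those labelled control (SD, n = 3 each), a ratio of 4.73. On log2(FPKM + 1) it rose by 1.83 (SE 0.18, 95% interval 1.401 to 2.255, adjusted p = 0.00378), the 16th largest rise of the 167 genes called higher. The call held when each of the 6 libraries was left out in turn (adjusted p of 0.0102 to 0.0272) and against a fold change of 1.5 (adjusted p = 0.0392).

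With the level of the atrial markers Myl7, Myl4, Sln and Bmp10 as a covariate, a fit added after seeing the data, the difference was 1.64 with an adjusted p of 0.0993. The differences of the 3 other carriers past the threshold were 0.598 for Slc47a1, -1.25 for Slc40a1 and -0.703 for Slc7a1 in that fit, against 0.588, -1.001 and -0.915 without the covariate. Their adjusted p values were 0.221, 0.142 and 0.249, in a fit where 41 genes in all passed against 332 without the covariate. Myl7, Myl4 and Sln were each higher without overlap in the libraries labelled CM-RevDKO, so the covariate runs with the label. With so few libraries the fit cannot separate the covariate from the label. The part of the atrial transcripts in these values was therefore not tested. In whole tissue, more cells of a type and more RNA per cell cannot be told apart.

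The 250 bases before the start of Slc17a7 in RefSeq (GRCm38.p6, chr7:45163671-45163920, plus strand) are shown because this gene carries the largest difference. None of the motifs searched, described further on, is present in them, and 61.2% of the bases are G or C.
Slc17a7: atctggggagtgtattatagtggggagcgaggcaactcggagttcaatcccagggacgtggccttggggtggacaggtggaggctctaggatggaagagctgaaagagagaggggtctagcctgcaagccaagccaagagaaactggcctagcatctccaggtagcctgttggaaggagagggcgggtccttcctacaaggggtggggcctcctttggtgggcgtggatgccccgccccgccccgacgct

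The second rise was in Slc47a1, which encodes MATE1, an exporter of organic cations in exchange for protons best known from kidney and liver. It is on chromosome 11 at 61343400 to 61378842 (ENSMUSG00000010122) and ranked 8th in level among the carriers. It had 32.6, 33.3 and 34.9 FPKM in the libraries labelled CM-RevDKO, against 23.2, 20.9 and 22.05 FPKM in those labelled control. The replicates of each group lay close together and the groups did not overlap. Means were 33.6 ± 1.19 FPKM in the libraries labelled CM-RevDKO and 22.03 ± 1.17 FPKM in those labelled control (SD, n = 3 each), a ratio of 1.53. The rise on the log2 scale was 0.59 (SE 0.09, 95% interval 0.38 to 0.79, adjusted p = 0.0171). The call was kept without replicate 1 or replicate 3 labelled CM-RevDKO (adjusted p of 0.0393 and 0.0457) and lost without each of the other 4 libraries (0.0601 to 0.0779), while the difference stayed between 0.55 and 0.62. A pseudogene, Gm18931, overlaps 798 bases of the locus and could share reads with it.

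Slc7a1 fell. It encodes CAT1, the main carrier of arginine, lysine and ornithine into most cells, on chromosome 5 at 148327410 to 148399904 (ENSMUSG00000041313). Levels were 2.97, 3.55 and 4.30 FPKM in the libraries labelled CM-RevDKO, against 7.75, 7.87 and 7.28 FPKM in those labelled control. The control values were nearly equal to each other, and the highest value labelled CM-RevDKO was below the lowest of them. The mean was 3.61 ± 0.67 FPKM in the libraries labelled CM-RevDKO and 7.63 ± 0.31 FPKM in those labelled control (SD, n = 3 each). The difference was -0.92 on the log2 scale (SE 0.13, 95% interval -1.21 to -0.62, adjusted p = 0.0137). It passed without replicate 1 (adjusted p = 0.0311) or replicate 3 (0.0149) labelled CM-RevDKO and missed the threshold without each of the other 4 libraries (0.0559 to 0.0706), with differences of -0.81 to -1.02 throughout. The 250 bases before its outermost RefSeq start (GRCm38.p6, chr5:148399905-148400154, minus strand) are shown as those of the carrier that fell with the smallest p. They also hold none of the motifs searched.
Slc7a1: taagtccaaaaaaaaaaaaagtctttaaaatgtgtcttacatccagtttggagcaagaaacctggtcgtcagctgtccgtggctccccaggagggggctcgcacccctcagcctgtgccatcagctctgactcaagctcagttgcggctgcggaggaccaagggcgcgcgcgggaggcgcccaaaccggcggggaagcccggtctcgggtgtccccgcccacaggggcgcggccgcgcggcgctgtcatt

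On log2(FPKM + 1), Slc40a1 had the largest fall of the carriers past the threshold. It encodes ferroportin, the only known exporter of iron from cells, which hepcidin removes from the surface, and is strongly expressed by macrophages that recycle iron. On chromosome 1 at 45908070 to 45926532 (ENSMUSG00000025993), it had 3.29, 1.95 and 2.46 FPKM in the libraries labelled CM-RevDKO, against 6.58, 6.77 and 4.97 FPKM in those labelled control. The groups did not overlap, and replicate 3 labelled control lay nearest to the other group. Means were 2.57 ± 0.68 FPKM in the libraries labelled CM-RevDKO and 6.10 ± 0.99 FPKM in those labelled control (SD, n = 3 each), so the control mean was 2.38 times as high. The log2 difference was -1.001 (SE 0.17, 95% interval -1.403 to -0.60, adjusted p = 0.0313). The call was kept without replicate 1 labelled CM-RevDKO (adjusted p = 0.0267) and lost without each of the other 5 libraries (0.0559 to 0.122). The 8 macrophage markers tested summed to 185.1, 105.9 and 112.2 FPKM in the libraries labelled CM-RevDKO and to 125.9, 133.2 and 116.8 FPKM in those labelled control, and their part in the fall was not tested. None of the 8 passed limma's test, and none reached an unadjusted p under 0.05 (0 of 8). Slc11a1, a metal carrier of macrophage phagosomes, had 4.17, 2.78 and 2.10 FPKM in the libraries labelled CM-RevDKO and 2.16, 3.84 and 3.78 FPKM in those labelled control.

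**Figure D2:**
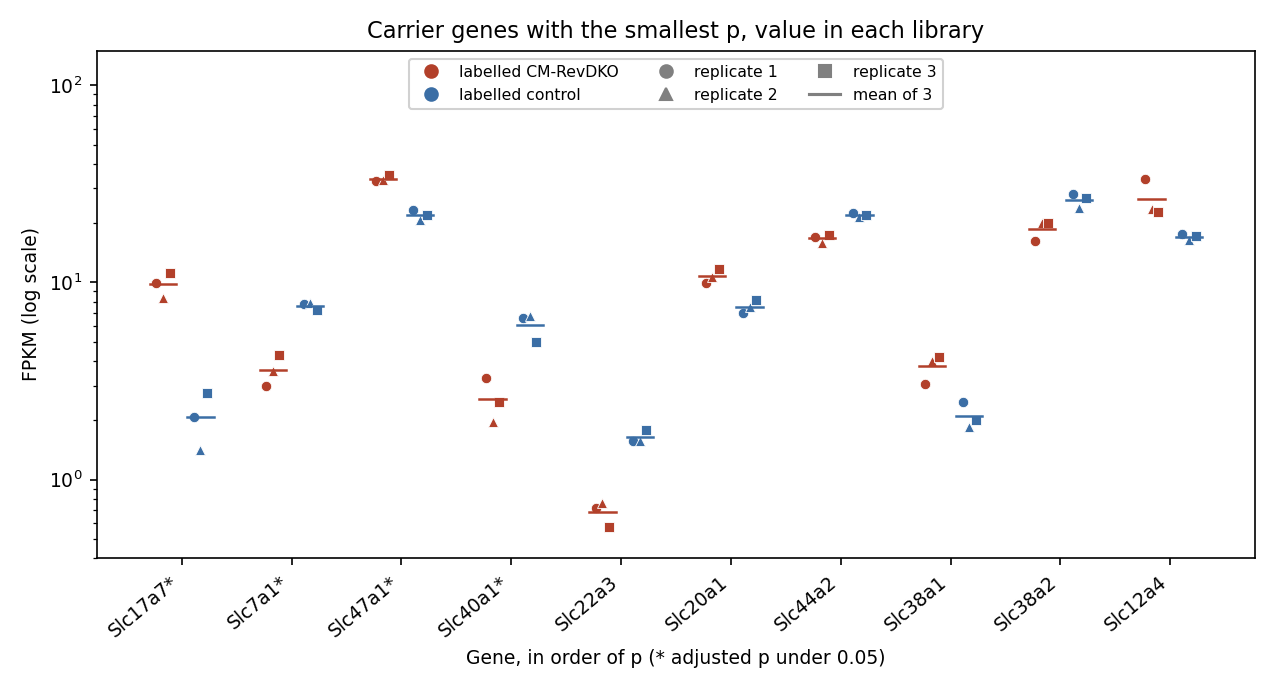
FPKM on a log scale in each library for the 10 carriers with the smallest p, in order of p, with libraries labelled CM-RevDKO in red to the left of those labelled control in blue. Symbols mark the replicate number, which is not known to pair the groups. Lines are means of 3, and an asterisk marks an adjusted p under 0.05. None of the 10 has groups that overlap, which the choice by smallest p favours. Of all tested genes, 23.1% had groups without overlap.

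The carriers were then read by the substrate of their family. Of 21 carriers of amino acids, 1 fell (Slc7a1), none rose, and 5 did not overlap, 2 higher and 3 lower. Of all tested genes, 1.24% were called lower, 1.26% were called higher and 23.1% did not overlap (12.6% higher and 10.5% lower). The sodium-coupled neutral carriers SNAT1 and SNAT2 went opposite ways without passing the test. Slc38a1, which encodes SNAT1 and carries glutamine, had 3.06, 4.00 and 4.19 FPKM in the libraries labelled CM-RevDKO, against 2.47, 1.84 and 2.02 FPKM in those labelled control (0.61, adjusted p = 0.083). Slc38a2, which encodes SNAT2, induced by amino acid starvation in many cells, had 16.2, 20.04 and 20.1 FPKM in the libraries labelled CM-RevDKO, against 28.2, 24.01 and 26.8 FPKM in those labelled control (-0.47, adjusted p = 0.0947). Slc36a2, a proton-coupled carrier of glycine and proline, was likewise lower without overlap, at 5.80, 6.66 and 6.78 FPKM in the libraries labelled CM-RevDKO and 7.30, 8.502 and 8.69 FPKM in those labelled control (adjusted p = 0.22).

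The remaining amino acid carriers overlapped between the groups, except Slc38a7, which was higher by 0.12. Slc43a3, a nucleobase carrier by later work in human cells although its family is one of amino acid carriers, was the most abundant at 46.8, 32.1 and 31.8 FPKM in the libraries labelled CM-RevDKO and 34.4, 41.7 and 29.5 FPKM in those labelled control. Slc38a10 had 34.1, 25.5 and 23.8 FPKM in the libraries labelled CM-RevDKO and 25.9, 31.5 and 26.9 FPKM in those labelled control. The taurine carrier Slc6a6 had 20.6, 25.3 and 22.1 FPKM in the libraries labelled CM-RevDKO and 25.8, 23.9 and 23.04 FPKM in those labelled control. These 3 genes give no order of the groups. The parts of the large neutral amino acid exchanger were at different levels: its heavy chain Slc3a2 had 11.1, 7.74 and 9.04 FPKM in the libraries labelled CM-RevDKO and 11.04, 7.49 and 8.85 FPKM in those labelled control. Its light chain Slc7a5 was nearer to the level of the rule, with 2.04, 0.934 and 0.741 FPKM in the libraries labelled CM-RevDKO and 1.19, 0.901 and 1.09 FPKM in those labelled control. The glutamine carrier Slc1a5 had 17.7, 16.7 and 10.9 FPKM in the libraries labelled CM-RevDKO and 12.3, 15.9 and 10.5 FPKM in those labelled control. Slc38a9, the lysosomal arginine sensor, had 3.35, 3.30 and 2.56 FPKM in the libraries labelled CM-RevDKO and 3.38, 2.13 and 3.07 FPKM in those labelled control in its main row, and its second row carries another gene identifier, so reads may be split between them.

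Genes that answer to amino acid supply were read from 2 lists. Of 17 genes of the ATF4 stress response, none passed limma's test in either direction, and the median difference was 0.07. At an unadjusted p under 0.05 stood 4 higher and 2 lower, beside 16.6% of all tested genes. The 4 higher were Mthfd2, Ddit4, Atf4 and Phgdh. The 2 lower were Herpud1 (-0.79, adjusted p = 0.0702) and Vldlr (-0.58, adjusted p = 0.119), both without overlap. Atf4 itself, the factor that induces these genes, had 36.4, 34.3 and 37.8 FPKM in the libraries labelled CM-RevDKO and 28.1, 33.6 and 29.4 FPKM in those labelled control, without overlap (adjusted p = 0.274). Of 17 genes of amino acid sensing by mTORC1, none passed (1 higher and 2 lower at an unadjusted p under 0.05), with a median of 0.00.

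Among 21 carriers of metals and heme, 1 fell (Slc40a1) and none rose, and the median difference was 0.05. Slc11a2, the divalent metal transporter DMT1 that brings iron out of endosomes, had 6.81, 7.43 and 8.66 FPKM in the libraries labelled CM-RevDKO, above 5.44, 6.50 and 5.84 FPKM in those labelled control, with an adjusted p of 0.239. The zinc importer Slc39a1 had 22.8, 19.5 and 20.9 FPKM in the libraries labelled CM-RevDKO, below 24.8, 24.5 and 23.5 FPKM in those labelled control (adjusted p = 0.349). These 2 genes and Slc40a1 were the only members of the group whose libraries did not overlap, beside 23.1% of all tested genes. Slc30a9, a zinc carrier of mitochondria, was the most abundant, at 28.5, 35.4 and 35.03 FPKM in the libraries labelled CM-RevDKO and 37.7, 30.3 and 38.9 FPKM in those labelled control. Slc48a1, which moves heme out of lysosomes, had 26.5, 24.8 and 22.8 FPKM in the libraries labelled CM-RevDKO and 27.8, 24.4 and 24.2 FPKM in those labelled control. The pseudogene Slc39a1-ps had 1.81, 1.39 and 1.73 FPKM in the libraries labelled CM-RevDKO and 1.16, 1.52 and 1.33 FPKM in those labelled control, and it could share reads with Slc39a1.

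Other genes of metal handling did not pass either. Of 16 tested from a list of 17, none passed limma's test (2 higher and 1 lower at an unadjusted p under 0.05), and the median difference was 0.03. Ceruloplasmin, Cp, a ferroxidase that works beside ferroportin, had 41.9, 37.1 and 42.9 FPKM in the libraries labelled CM-RevDKO, above 31.7, 24.5 and 24.5 FPKM in those labelled control (adjusted p = 0.0653). The metallothionein Mt1, which binds zinc and copper, had 202, 160 and 151 FPKM in the libraries labelled CM-RevDKO, below 229, 316 and 230 FPKM in those labelled control (adjusted p = 0.127). The transferrin receptor Tfrc, which takes up iron, overlapped, with 9.84, 16.9 and 16.3 FPKM in the libraries labelled CM-RevDKO and 12.2, 11.5 and 27.9 FPKM in those labelled control. Hemoglobin transcripts, which carry red cell RNA into a tissue sample, differed between libraries: the 5 red cell markers summed to 11000, 8867 and 8703 FPKM in the libraries labelled CM-RevDKO and to 6274, 9005 and 5010 FPKM in those labelled control. Their part in the values of the metal carriers was not tested.

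**Figure D3:**
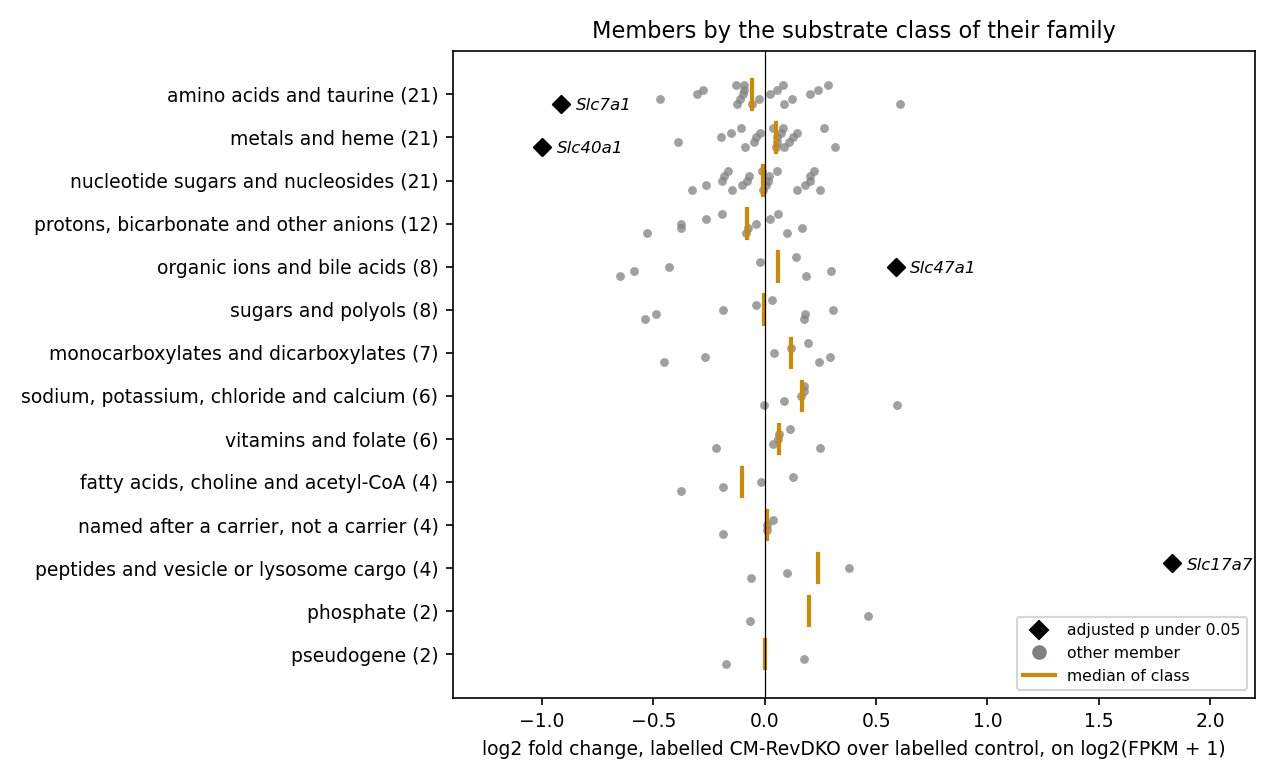
Log2 fold change on log2(FPKM + 1), libraries labelled CM-RevDKO over those labelled control, of each of the 126 carriers by the substrate class of its family, with the number of members in brackets. Diamonds are the 4 genes past limma's adjusted p of 0.05 and short bars are class medians, which lie between -0.10 and 0.24.

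Carriers of ions across the cell surface were among the most abundant. The 12 carriers of protons, bicarbonate and other anions summed to 94.5, 99.8 and 102.9 FPKM in the libraries labelled CM-RevDKO and to 118.6, 116.2 and 113.7 FPKM in those labelled control, and most of that sum was Slc4a3. Slc4a3 encodes AE3, the chloride and bicarbonate exchanger of the cardiomyocyte, and at 60.2 FPKM had the highest mean of all 126. It had 51.7, 55.3 and 57.0 FPKM in the libraries labelled CM-RevDKO, below 61.8, 68.1 and 67.4 FPKM in those labelled control. The difference was -0.26 (SE 0.09) with an adjusted p of 0.191. Slc4a4, the sodium bicarbonate cotransporter NBCe1, was also lower without overlap, at 2.58, 2.28 and 2.12 FPKM in the libraries labelled CM-RevDKO and 4.62, 3.54 and 3.30 FPKM in those labelled control (-0.53, adjusted p = 0.109). Slc9a8, a sodium and proton exchanger of organelles, had 4.73, 6.45 and 5.85 FPKM in the libraries labelled CM-RevDKO and 9.54, 7.13 and 6.47 FPKM in those labelled control, where its groups lay almost in contact. No member of this class passed limma's test (0 higher and 2 lower at an unadjusted p under 0.05). Without overlap, no member was higher and 3 were lower, beside 12.6% and 10.5% of all tested genes.

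No member of the class of sodium, potassium, chloride and calcium carriers passed the test. Its 6 members summed to 78.7, 74.99 and 76.8 FPKM in the libraries labelled CM-RevDKO and to 61.7, 64.1 and 59.5 FPKM in those labelled control, and these sums did not overlap. Without Slc12a4 the other 5 summed to 45.2, 51.3 and 54.02 FPKM in the libraries labelled CM-RevDKO and to 44.2, 47.7 and 42.35 FPKM in those labelled control, which overlap. All 5 members of the Slc12 family had positive differences, from 0.09 to 0.60, but none passed (1 higher and 0 lower of the 6 at an unadjusted p under 0.05), and Slc12a9 changed sign under 3 of the alternative settings. Slc12a4, the potassium and chloride cotransporter KCC1, had 33.5, 23.7 and 22.8 FPKM in the libraries labelled CM-RevDKO, against 17.5, 16.4 and 17.2 FPKM in those labelled control (0.60, SE 0.15, adjusted p = 0.098). Replicate 1 labelled CM-RevDKO was the highest, and the other 2 libraries of that label still stood above every control. Slc12a7, its relative KCC4, overlapped at 24.4, 31.1 and 32.1 FPKM in the libraries labelled CM-RevDKO and 23.8, 27.9 and 25.9 FPKM in those labelled control. Slc12a2, the sodium, potassium and chloride cotransporter NKCC1, had 5.14, 5.09 and 5.25 FPKM in the libraries labelled CM-RevDKO, narrowly above 4.52, 4.89 and 3.98 FPKM in those labelled control (adjusted p = 0.449). Slc24a6, the sodium and calcium exchanger of mitochondria that is now called Slc8b1, overlapped at 4.00, 4.21 and 3.01 FPKM in the libraries labelled CM-RevDKO and 3.44, 4.16 and 3.60 FPKM in those labelled control.

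The kinases, carbonic anhydrases, sodium pump subunits and chaperones that act on these carriers were read as a list of 18, of which 17 were tested by limma. Of these 1 rose and 1 fell, beside 1.26% of all tested genes called higher and 1.24% called lower. The one that rose was Car14, carbonic anhydrase 14, a membrane enzyme of cardiomyocytes that supplies bicarbonate to exchangers such as AE3. It had 196, 166 and 164 FPKM in the libraries labelled CM-RevDKO, against 79.6, 92.6 and 74.1 FPKM in those labelled control. The groups were far apart, with a ratio of 2.14 and a rise of 1.09 on the log2 scale (SE 0.12, adjusted p = 0.00472). The one that fell was Wnk4, a kinase that controls the Slc12 cotransporters in the kidney. It had 1.68, 1.34 and 1.44 FPKM in the libraries labelled CM-RevDKO, against 5.28, 4.63 and 4.27 FPKM in those labelled control, a difference of -1.20 (SE 0.12, adjusted p = 0.00412). Wnk1, the relative that is expressed in most tissues, was at a higher level and overlapped, with 38.7, 39.7 and 56.6 FPKM in the libraries labelled CM-RevDKO and 58.1, 46.4 and 72.8 FPKM in those labelled control. Across the 17, the median difference was -0.16. Of 6 genes of the osmotic response, which also adjusts ion and taurine transport, none passed limma's test (0 higher and 2 lower at an unadjusted p under 0.05).

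**Figure D4:**
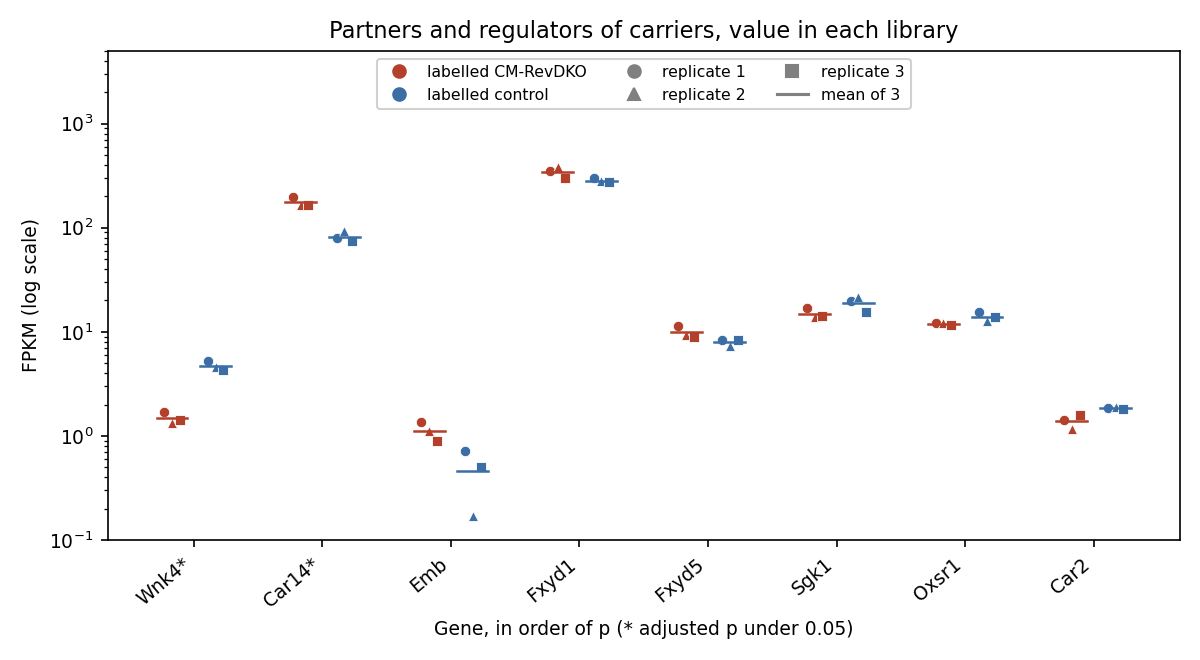
FPKM on a log scale in each library for the 8 partners and regulators of carriers with the smallest p, in order of p, with libraries labelled CM-RevDKO in red to the left of those labelled control in blue. Lines are means of 3, and the asterisks mark Wnk4 (lower) and Car14 (higher), which passed an adjusted p of 0.05.

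Of the phosphate carriers, Slc20a1 and Slc20a2, which encode the sodium-coupled carriers PiT1 and PiT2, only the less abundant gave groups that did not overlap. Slc20a1 had 9.99, 10.6 and 11.7 FPKM in the libraries labelled CM-RevDKO, above 6.98, 7.501 and 8.10 FPKM in those labelled control (0.46, SE 0.10, adjusted p = 0.0703). Slc20a2 had 43.5, 39.9 and 36.6 FPKM in the libraries labelled CM-RevDKO and 43.7, 43.1 and 38.9 FPKM in those labelled control (-0.07, 95% interval -0.30 to 0.17). The test of the difference between the 2 genes was not made.

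The class of organic ions and bile acids held the rise of Slc47a1 and a second carrier of organic cations that lay the other way. Slc22a3, the bidirectional organic cation transporter OCT3 of the cardiomyocyte surface, had 0.714, 0.764 and 0.573 FPKM in the libraries labelled CM-RevDKO, against 1.58, 1.58 and 1.78 FPKM in those labelled control. The control mean was 2.40 times as high, and the difference of -0.65 missed the threshold (adjusted p = 0.0675). It is 1 of the 6 genes that reached the level of the rule through 1 group. Slc22a4, the ergothioneine carrier OCTN1, had 1.49, 1.18 and 1.35 FPKM in the libraries labelled CM-RevDKO and 2.03, 1.57 and 4.54 FPKM in those labelled control, where replicate 3 stood out. Because Slc47a1 made up most of the class, the sums were 45.1, 44.97 and 45.3 FPKM in the libraries labelled CM-RevDKO and 36.3, 32.3 and 37.4 FPKM in those labelled control.

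Choline is carried by the Slc44 family. Slc44a2 had 16.97, 15.9 and 17.5 FPKM in the libraries labelled CM-RevDKO, below 22.4, 21.6 and 22.1 FPKM in those labelled control, with little spread in either group. The difference was -0.38 (SE 0.08) with an adjusted p of 0.0755, and it passed when values were scaled without the mitochondrially encoded genes. Slc27a4, the fatty acid carrier FATP4, was higher without overlap by 0.13, at 5.51, 5.18 and 5.24 FPKM in the libraries labelled CM-RevDKO and 4.38, 5.12 and 4.86 FPKM in those labelled control (adjusted p = 0.575).

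Nucleotide sugar carriers of the Golgi and endoplasmic reticulum and the nucleoside carriers differed little. Of 21 members none passed limma's test (0 higher and 1 lower at an unadjusted p under 0.05), all lay between -0.33 and 0.25, and the median was -0.01. Slc35f5, the most abundant, had 32.3, 38.8 and 31.9 FPKM in the libraries labelled CM-RevDKO and 39.1, 34.7 and 36.6 FPKM in those labelled control. Slc35b1, described in human cells as the exchanger that brings ATP into the endoplasmic reticulum, had 10.2, 12.8 and 13.6 FPKM in the libraries labelled CM-RevDKO, below 14.1, 15.1 and 17.3 FPKM in those labelled control (-0.33, adjusted p = 0.274). The adenosine carrier Slc29a1, ENT1, overlapped at 24.5, 22.1 and 24.8 FPKM in the libraries labelled CM-RevDKO and 24.04, 27.98 and 23.7 FPKM in those labelled control.

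**Figure D5:**
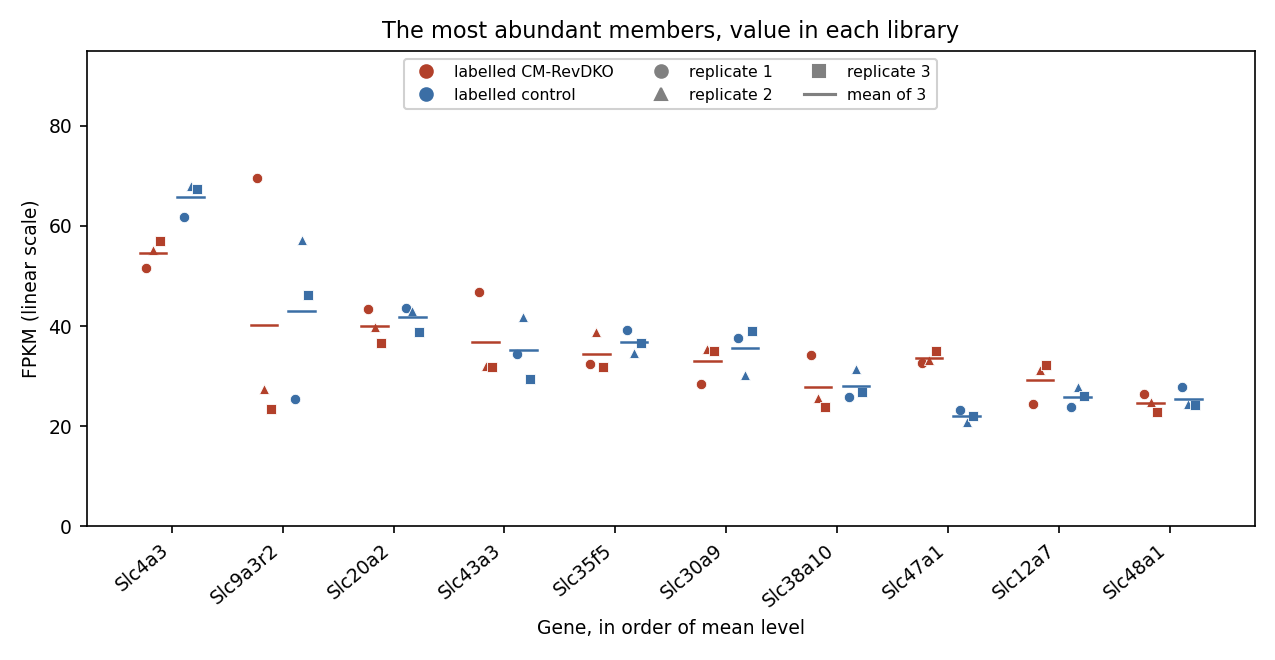
FPKM on a linear scale from 0 in each library for the 10 most abundant members, in order of mean level, with libraries labelled CM-RevDKO in red to the left of those labelled control in blue. Among these members, Slc9a3r2 is no carrier. Lines are means of 3; the groups overlap for 8 of the 10, while Slc4a3 was lower and Slc47a1 higher without overlap.

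Sugar, monocarboxylate and vitamin carriers were at lower levels. Among 8 sugar carriers none passed limma's test (0 higher and 1 lower at an unadjusted p under 0.05). Slc50a1, of the SWEET family, was the most abundant and overlapped, with 16.4, 18.2 and 16.7 FPKM in the libraries labelled CM-RevDKO and 18.2, 17.4 and 14.6 FPKM in those labelled control. Slc2a12, the glucose transporter GLUT12, had 0.566, 0.858 and 1.12 FPKM in the libraries labelled CM-RevDKO, below 1.75, 1.73 and 1.26 FPKM in those labelled control (-0.49, adjusted p = 0.223). Like Slc22a3, it is 1 of the 6 genes that reached the level of the rule through 1 group, here the control. Among 7 monocarboxylate carriers none passed (1 higher and 1 lower at an unadjusted p under 0.05). Slc16a6, which exports ketone bodies from the liver of zebrafish, had 4.15, 4.18 and 3.91 FPKM in the libraries labelled CM-RevDKO, above 3.41, 3.20 and 3.26 FPKM in those labelled control (0.25, adjusted p = 0.266). Slc16a10, which carries aromatic amino acids and thyroid hormone, had 2.07, 2.51 and 2.92 FPKM in the libraries labelled CM-RevDKO, below 3.26, 4.35 and 3.75 FPKM in those labelled control (-0.45, adjusted p = 0.168). Neither difference passed the threshold, although the groups of each gene did not overlap.

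None of 6 vitamin carriers passed limma's test, and none had an unadjusted p under 0.05 (0 of 6). Slc52a2, a riboflavin carrier, had 1.65, 1.66 and 2.03 FPKM in the libraries labelled CM-RevDKO, above 1.24, 1.497 and 1.27 FPKM in those labelled control. Slc46a3, a lysosomal carrier, was the most abundant of them and overlapped, with 3.85, 5.62 and 5.62 FPKM in the libraries labelled CM-RevDKO and 8.41, 6.05 and 4.05 FPKM in those labelled control.

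Some carriers differed more within a group than between the groups. Slc15a2, the peptide carrier PEPT2, ranged 44-fold over the 6 libraries, with 0.175, 5.93 and 4.55 FPKM in those labelled CM-RevDKO and 0.947, 7.69 and 0.216 FPKM in those labelled control. Its spread within groups was larger than that of 99.7% of all tested genes, and each group held a library under 1 FPKM. Slc9a3r2, which encodes the scaffold NHERF2 and is no carrier, had 69.6, 27.4 and 23.5 FPKM in the libraries labelled CM-RevDKO and 25.4, 57.1 and 46.3 FPKM in those labelled control, above the spread of 97.7% of genes. Slc36a1, a lysosomal amino acid carrier, was high in 1 library, with 4.68, 1.61 and 1.66 FPKM in those labelled CM-RevDKO and 1.40, 1.60 and 2.51 FPKM in those labelled control. At the other end, the spread of Slc44a2 within groups was larger than that of 1.98% of tested genes and that of Slc47a1 larger than that of 4.32%.

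REV-ERB and its activating counterpart ROR bind the half-site AGGTCA, the clock activators bind the E-box CACGTG and NFIL3 and DBP bind D-boxes such as TTATGTAA and TTACGTAA, so these motifs were looked for on both strands in the 250 bases before each RefSeq start. The table of promoters (GRCm38.p6) held 129 promoters of 93 carriers. AGGTCA was found in 17 of them (13.2%), against 14.02% of all promoters (4607 of 32851) and 10.9% of those of genes in the deposited table. CACGTG was found in 13 (10.1%), against 6.02% of all promoters and 8.18% of those of genes in the table. TTATGTAA was found in 1 (0.775%), against 0.819% of all promoters, and TTACGTAA in none, against 0.113%. The RevDR2 element, in which a pair of half-sites AGGTCA is set 2 bases apart, was in no carrier promoter and in 3 of all promoters. These shares describe letters and not binding.

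In 4 carrier promoters the half-site and the E-box overlapped as AGGTCACGTG, a string searched after the hits were seen. It stands in 3.1% of the carrier promoters, against 0.158% of all promoters and 0.323% of those of genes in the table. The 4 genes are Slc20a1, Slc37a3, which belongs to a family of sugar phosphate carriers, Slc36a1 and Slc12a7, and none of them passed the test. The sites are printed because they hold both motifs, with the 10 overlapping bases in capitals and up to 15 bases on either side, 5′ to 3′ on the strand of the gene. Coordinates in GRCm38.p6 are chr2:129198732-129198771 for Slc20a1 (plus strand), chr6:39377708-39377739 for Slc37a3 (minus), chr11:55204294-55204333 for Slc36a1 (plus) and chr13:73763640-73763679 for Slc12a7 (plus), and in Slc36a1 the string reads on the other strand.
Slc20a1: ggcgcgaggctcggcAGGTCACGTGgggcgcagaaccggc
Slc37a3: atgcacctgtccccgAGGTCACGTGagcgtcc
Slc36a1: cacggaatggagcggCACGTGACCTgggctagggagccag
Slc12a7: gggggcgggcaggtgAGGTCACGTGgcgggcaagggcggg
The overlapping sites lie 17 to 26 bases before the start of Slc20a1, 8 to 17 before that of Slc37a3, 22 to 31 before that of Slc36a1 and 33 to 42 before an inner start of Slc12a7. The differences of these genes were 0.46 for Slc20a1, 0.18 for Slc37a3, 0.28 for Slc36a1 and 0.16 for Slc12a7, and the groups overlapped for all of them but Slc20a1. Adjusted p by limma was 0.0703, 0.515, 0.711 and 0.577 in that order. Slc36a1 was high in 1 library labelled CM-RevDKO, and its difference changed sign under 4 of the alternative settings.

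The whole window of Slc20a1 (GRCm38.p6, chr2:129198523-129198772, plus strand) is given because it holds a second E-box, and capitals mark the 3 motif matches. A further AGGTCA stands before a second start of the gene inside the locus.
Slc20a1: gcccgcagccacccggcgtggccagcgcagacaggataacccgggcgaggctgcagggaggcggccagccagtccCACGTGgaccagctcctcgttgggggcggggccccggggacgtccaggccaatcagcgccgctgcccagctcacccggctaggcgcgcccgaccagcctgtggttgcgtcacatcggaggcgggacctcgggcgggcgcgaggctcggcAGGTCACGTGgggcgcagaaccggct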

How the data were processed

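Heart RNA of 3 samples labelled CM-RevDKO and 3 labelled control was read from 1 table of the whole series; the other 24 of 30 samples were not analysed here. Per the submitters' processing notes, HISAT2 and StringTie were used with mm10. The authors deposited values read as FPKM; the header names no unit and TPM was not excluded, depth is unknown, and whether counting used strand is not stated. Values were taken as log2(FPKM + 1), so differences understate those of low genes. Genes averaging 0.5 or more, 13256 in all, went into limma 3.58.1 (R 4.3.3, eBayes with trend), p adjusted by Benjamini-Hochberg over all of them at 0.05. On simulated data the fit recovered 22.2% of genes changed by 0.5, 76.0% by 1 and 95.5% by 2. The changed genes were drawn from those with a mean log2(FPKM + 1) over 2, so recovery at lower levels was not simulated. Positions, promoters and symbols come from RefSeq GRCm38.p6; 123 of 126 rows had a position. Members and lists were chosen with earlier results of these data known. Named were the members past the threshold, the 10 most abundant, and in each class the one with the smallest p and the most abundant; other genes given with values were chosen after their values were seen. Alternatives were pseudocounts, filters, scalings, variance models, weights, a replicate block, a fold threshold and left-out libraries. Some carriers and a marker gene are not reported here.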

Additional observations from a re-analysis of the deposited data

How the results depend on the processing

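The 4 carriers past the threshold were the same under pseudocounts of 0.1 and 0.5, no filter on low values, median of ratios scaling, quantile normalization and robust eBayes, and no difference of the 4 changed sign in any setting. Leaving out 1 library in turn gave 1 to 2 carriers higher, 0 to 2 lower and 120 to 322 genes in all, with Slc17a7 called each time. With the replicate block, 1 carrier was higher, 0 lower, and 115 genes passed. In deviations from the group means, same-numbered libraries had correlations of -0.04, -0.06 and 0.09, and differently numbered ones -0.0885 to 0.109. No shared deviation of same-numbered libraries was seen, but whether such samples were handled together is unknown. Against a fold change of 1.5, 1 was higher, 0 lower, and 35 genes passed. With array weights 4 were higher, among them Slc20a1 and Slc38a1. A mean of at least 5 left 1 lower, since Slc40a1 was not tested there, and a median of -0.0239. The median was -0.036 when scaled without mitochondrially encoded genes. Among fits added after seeing the data, leaving out replicate 2 labelled control and replicate 1 labelled CM-RevDKO gave 0 lower, 105 genes and a median of -0.0319; replicate 3 labelled CM-RevDKO alone, where the spread comes from the controls only and the lone library is assumed to vary like them, gave 0 higher, 0 lower and 21 genes; atrial transcripts as a covariate gave 0 higher, 0 lower, 41 genes and a median of -0.0302. Except where stated, the cause was not tested. All counts are limma's; the unadjusted count of the main fit is 19 carriers.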

Other observations

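Of the carriers under the level of the rule, those named below were chosen after their values were seen. Of the 24 such rows, 20 were tested and none passed limma's test. At an unadjusted p under 0.05 stood 2 higher and 1 lower of the 20, beside 16.6% of all tested genes. Groups that do not overlap were found for 23.1% of all tested genes. Slc1a7, a glutamate transporter best known from the retina, had 1.28, 0.947 and 1.09 FPKM in the libraries labelled CM-RevDKO, above 0.207, 0.458 and 0.343 FPKM in those labelled control (adjusted p = 0.107). Slc37a2, a sugar phosphate carrier abundant in macrophages, had 0.654, 0.304 and 0.406 FPKM in the libraries labelled CM-RevDKO, below 1.10, 1.18 and 1.31 FPKM in those labelled control (adjusted p = 0.129). Slc7a10, which carries small neutral amino acids, was listed at 1.04, 0.734 and 0.253 FPKM in the libraries labelled CM-RevDKO and at 0, 0.0802 and 0 in those labelled control. Its mean of 0.351 FPKM was under the filter, so it was not tested. The 5 adipocyte markers summed to 100.2, 64.5 and 35.1 FPKM in the libraries labelled CM-RevDKO. In those labelled control they summed to 48.6, 43.4 and 39.7 FPKM, and their part in the values of Slc7a10 was not tested.

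Replicate 2 labelled control held the highest values of 3 carriers of hepatocytes. Slc10a1, the bile acid importer of the liver, was at 0.066, 0.307 and 0 FPKM in the libraries labelled CM-RevDKO and at 0.644, 1.83 and 0.315 FPKM in those labelled control. Slc27a2, a fatty acid carrier of the liver, was at 0.310, 0.144 and 0 FPKM in the libraries labelled CM-RevDKO and at 0.142, 1.93 and 0.0416 FPKM in those labelled control. Slc27a5, the bile acid ligase of the same family, was at 0.0773, 0.125 and 0 FPKM in the libraries labelled CM-RevDKO and at 0.0612, 2.03 and 0.0354 FPKM in those labelled control. These genes were chosen after their values were seen. The peptide carrier Slc15a2 had an adjusted p of 0.877 by limma over the 6 libraries. A fit added after seeing the data left out replicate 2 labelled control and replicate 1 labelled CM-RevDKO. Those libraries held the highest (7.69 FPKM) and the lowest (0.175 FPKM) of its 6 values, so a rise was built into that choice. The difference there was 2.70 with an adjusted p of 0.0435, which is no evidence of a rise.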
